A study of Mus musculus with 36 samples.

Results

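The comparison described here is BtdCPU added to thapsigargin in wild-type mouse embryonic fibroblasts. Its members are the 6 libraries that the labels give as PERK WT with thapsigargin (Tg), 3 with BtdCPU + Tg and 3 with Tg alone, out of 36 libraries in the series. All 16065 genes that passed the filter on low counts were compared across them. The series crossed 2 genotypes (PERK WT and PERK -/-) with 6 treatments (DMSO, Tg, BtdCPU, halofuginone and each compound with Tg) in bulk RNA-seq, with 3 libraries in each of the 12 groups. For reference, values are also given from the WT groups with DMSO, with BtdCPU alone and with Halofuginone + Tg, and from the PERK -/- groups with Tg and with BtdCPU + Tg. The labels state no dose, no exposure time and no batch, and they give the cells only as MEF, with no line or clone named. They do not say whether replicates were separate cultures, so the p-values measure the spread between these libraries, which may be technical.

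Thapsigargin blocks the pump that fills the endoplasmic reticulum (ER) with calcium, and proteins then misfold there. Misfolding activates the sensors PERK, IRE1 and ATF6. PERK phosphorylates eIF2 alpha, which lowers translation and lets the transcription factor ATF4 raise genes of amino acid supply, a program called the integrated stress response (ISR), whereas IRE1 (through XBP1s) and ATF6 raise chaperones and secretory genes. BtdCPU is a diaryl urea that activates HRI, another kinase of eIF2 alpha. The comparison sets cells given Tg and an activator of another eIF2 alpha kinase beside cells given Tg alone.

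The 6 libraries held 33509674 to 37178107 counts. Library 3 of BtdCPU + Tg lay at -48.0 on the first principal component of the 6 (32.1% of the variance), against -11.4 to 32.8 for the others. In it, mRNAs of mitochondrial DNA made up 1.59% of the counts against 2.22% to 3.30%. On the second component (26.0%), library 2 of BtdCPU + Tg lay at 37.4 and library 3 of Tg at -36.3. Same-numbered libraries of both groups deviated together (correlations of 0.159, 0.312 and 0.337), and a fit with the replicate number as a block (the block, below) is given beside the results it moves most. Of 12 fibroblast markers all 12 were above 1 CPM (counts scaled to the TMM-adjusted library size), and 3 of them were called lower with BtdCPU (Col1a2, Col3a1 and Pdgfra), with a summed level of 14850 to 18660 CPM with BtdCPU + Tg and 16078 to 20628 with Tg. No marker of epithelial, endothelial, leukocyte, muscle, fat or nerve cells was called. Leukocyte markers summed to 15.8 to 20.9 CPM with BtdCPU + Tg and 22.0 to 33.2 CPM with Tg, with Ptprc and Lyz2 under 1 CPM and Tyrobp at 0, and all 7 endothelial and 6 muscle markers were under 1 CPM. In bulk RNA, fewer cells of a type and less RNA per cell cannot be told apart.

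In the fit without the replicate block, BtdCPU changed few genes in cells that already had Tg. By edgeR's quasi-likelihood test with an adjusted p under 0.05, 372 of 16065 genes were called (2.32%), 208 higher (1.29%) and 164 lower (1.02%). The groups did not overlap in CPM for 368 of the 372, and they did not overlap for 3008 genes of all those tested (18.7%). An unadjusted p under 0.05 was found for 2727 of the tested genes (17%), 1279 of them lower. The changes were small: the median absolute log2 fold change of the called genes was 0.58, with quartiles of 0.43 and 0.79, and 59 passed 1 (47 higher, 12 lower). For scale, the same fit called 7647 genes (47.6%) for Tg against DMSO in WT cells, 3571 (22.2%) for BtdCPU against DMSO, and 5723 (35.6%) for BtdCPU + Tg against Tg in PERK -/- cells. The number of calls rested on single libraries and on how replicates were modelled. It was 41 without library 3 of BtdCPU + Tg, 67 without library 1 of Tg and 166 without library 3 of Tg. The fit with the replicate block called 2079 genes (12.9%), 1105 higher (6.88%) and 974 lower (6.06%), among them all 372. Counts of list members below stand beside these shares: 1.29% higher and 1.02% lower for the calls, 6.88% and 6.06% for the block.

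**Figure D1:**
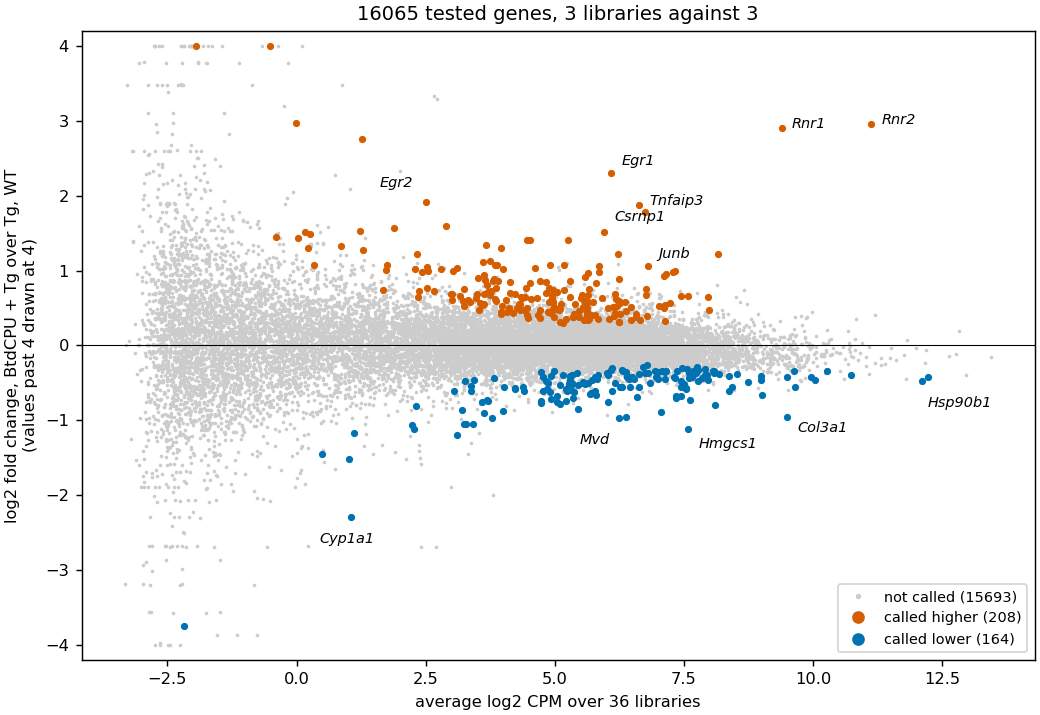
Log2 fold change of BtdCPU + Tg over Tg in WT cells (vertical, values past 4 drawn at 4) against the average log2 CPM (horizontal) for the 16065 tested genes. Called genes are coloured (208 higher, 164 lower); Rnr1 and Rnr2 lie at 2.90 and 2.95, Egr1 at 2.31 and Hmgcs1 at -1.12.

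Of the lists, immediate early genes held the most members called higher. They are transcription factors and feedback regulators that cells induce within minutes of a growth or stress signal, largely through ERK and other MAP kinases. Of 27 such genes, 9 were called higher and 0 lower, against 1.29% and 1.02% of all tested genes, and the list's median log2 fold change was 0.28, against 0.00 over all tested genes. With the replicate block 13 were higher and 1 (Ier3) lower. Without library 3 of BtdCPU + Tg, or without library 1 of Tg, 6 were still higher.

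Egr1, a zinc finger transcription factor, stood at 57.8, 38.8 and 53.7 CPM in the 3 libraries with BtdCPU + Tg and at 11.8, 10.02 and 8.44 CPM in those with Tg. Each library with BtdCPU + Tg was thus more than 3 times as high as any with Tg alone. The log2 fold change was 2.31 ± 0.22 (SE), edgeR adjusted p = 1.02e-07. Tg on its own had taken Egr1 from 48.2 ± 7.75 CPM in DMSO (SD, n = 3) to 10.1 ± 1.71, and BtdCPU alone gave 37.4 ± 5.41, so the level with BtdCPU + Tg (50.1 ± 9.97) lay near that of DMSO. Its relative Egr2 had 5.403, 4.95 and 5.70 CPM against 1.30, 1.59 and 1.33, a log2 fold change of 1.92 ± 0.30 (adjusted p = 0.000682). The groups were again well separated, and Tg had likewise lowered Egr2 (log2 fold change -2.28 against DMSO, a comparison that shares the Tg libraries).

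Junb, a subunit of the AP-1 transcription factor, had 153, 173 and 161 CPM against 75.7, 94.5 and 62.6 (log2 fold change 1.07 ± 0.15, adjusted p = 0.000138). Klf6, another early zinc finger factor, had 138, 132 and 178 CPM against 57.9, 85.2 and 81.2 (1.00 ± 0.17, adjusted p = 0.00155). Jun itself had 79.3, 71.3 and 89.4 CPM against 50.03, 46.4 and 46.4 (0.75 ± 0.13, adjusted p = 0.00161). In none of these 3 did the groups overlap. The other called members were the nuclear receptor Nr4a1 (0.85), the phosphatase Dusp4 that switches MAP kinases off (0.84), the AP-1 subunit Fosl2 (0.67) and Zfp36, which destabilises cytokine mRNAs (0.62). Fos had a log2 fold change of 0.94 at 0.526 to 1.86 CPM and did not pass (adjusted p = 0.226). Egr3 (-0.50), Dusp6 (-0.10), Ier2 (-0.02) and Jund (0.01) did not pass either, so the rise did not extend to the whole list.

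The Egr2 promoter is shown because early genes of this kind are the textbook targets of serum response factor, which binds the CArG box. The window is the 250 bases before an Egr2 start site, chr10:67537619-67537868 on the plus strand of GRCm38.p6 (RefSeq), with the CArG box in capitals, its first base 72 bases before the start. The CArG box was found on either strand in 4 of the 5 Egr2 windows of 300 bases and in 3 of 20 early genes that had a window (15%), against 1.67% of the tested genes and 1.81% of all genes with a window. Over the whole comparison it was found in 3 of 158 called-higher genes with a window (1.9%) and 3 of 121 called-lower genes (2.48%). A match of letters is a description and shows no binding.
Egr2: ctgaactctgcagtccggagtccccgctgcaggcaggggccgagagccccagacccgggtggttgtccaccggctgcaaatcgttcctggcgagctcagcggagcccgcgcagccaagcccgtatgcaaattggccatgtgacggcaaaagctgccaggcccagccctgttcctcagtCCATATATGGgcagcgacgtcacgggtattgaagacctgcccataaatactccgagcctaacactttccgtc

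Some genes of NF-kB feedback and inflammatory signalling rose beside them. NF-kB is held in the cytoplasm by IkB alpha (the product of Nfkbia) and switched off by the ubiquitin-editing enzyme A20 (the product of Tnfaip3), and both genes are its own targets. Of 21 genes of the list 4 were called higher and 0 lower, against 1.29% and 1.02% of all tested genes, with 6 members below 0 and a median log2 fold change of 0.58. Averaged over the list, log2(CPM + 1) was 4.24 to 4.81 with BtdCPU + Tg and 3.77 to 4.36 with Tg, so the groups overlapped. The block called 8 higher, and the same count of 4 stood without library 3 of BtdCPU + Tg and without library 1 of Tg.

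Tnfaip3 had 106, 84.6 and 121 CPM with BtdCPU + Tg and 25.5, 32.5 and 26.9 CPM with Tg. All 3 libraries with BtdCPU exceeded the highest Tg library by more than 2 times (log2 fold change 1.87 ± 0.27, adjusted p = 0.000231). In WT cells without Tg, BtdCPU left Tnfaip3 at 17.3 ± 2.56 CPM against 21.6 ± 5.84 in DMSO (SD, n = 3). Nfkbia had 79.9, 78.0 and 84.8 CPM against 37.03, 47.2 and 46.8 (0.89 ± 0.15, adjusted p = 0.00155), with a narrow spread in both groups. The cytokine genes Lif (18.4, 16.7 and 16.7 CPM against 7.80, 11.8 and 8.97) and Csf2 (4.53, 3.82 and 1.63 CPM against 0.650, 0.351 and 0.278) were also called, with log2 fold changes of 0.86 and 2.97. Csf2, which encodes GM-CSF, was close to the limit of detection with Tg. The chemokine genes Cxcl1 and Ccl2 had log2 fold changes of 1.09 (adjusted p = 0.147) and 0.81 (adjusted p = 0.148) and passed with the block (adjusted p = 0.011 and 0.0154).

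The promoters of Tnfaip3 and Nfkbia are printed for their kappaB sites, the letters that NF-kB is known to bind, which are in capitals. The windows are the 250 bases before the start in RefSeq (GRCm38.p6), both on the minus strand: chr10:19015411-19015660 for Tnfaip3, with sites beginning 125 and 12 bases before that start (1 of 2 Tnfaip3 windows held a match), and chr12:55492648-55492897 for Nfkbia, with a site 29 bases before it. Searched on both strands in windows of 300 bases, the kappaB site was found in 22 of the 158 called-higher genes that had a window (13.9%) and in 9 of 121 called-lower genes (7.44%), against 6.46% of the tested genes and 5.14% of all genes with a window. The cAMP element TGACGTCA was found in 15 of the 158 (9.49%) and in 1 of the 121 (0.826%), against 3.41% of the tested genes and 2.03% of all.
Tnfaip3: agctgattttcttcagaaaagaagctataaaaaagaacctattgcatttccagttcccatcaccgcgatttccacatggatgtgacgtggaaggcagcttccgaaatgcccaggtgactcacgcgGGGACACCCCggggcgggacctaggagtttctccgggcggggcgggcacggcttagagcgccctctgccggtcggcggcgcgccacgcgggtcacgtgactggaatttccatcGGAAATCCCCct
Nfkbia: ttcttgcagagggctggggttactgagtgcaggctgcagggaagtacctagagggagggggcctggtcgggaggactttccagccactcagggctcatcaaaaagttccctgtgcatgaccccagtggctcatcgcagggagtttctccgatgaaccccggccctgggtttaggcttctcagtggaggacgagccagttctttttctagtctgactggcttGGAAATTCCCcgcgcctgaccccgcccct

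Several further regulators were among the 10 largest rises. Csrnp1, a nuclear protein induced with early genes, had 51.2, 46.3 and 65.1 CPM against 17.5, 22.9 and 16.3 (log2 fold change 1.52 ± 0.21, adjusted p = 0.000131). Gadd45g, a stress-induced growth regulator, had 75.4, 61.3 and 143 CPM against 24.2, 29.4 and 27.6 (1.78 ± 0.34), and its relative Gadd45b had a called log2 fold change of 0.92. The highest value of both came from library 3 of BtdCPU + Tg, and without that library neither was called. Gadd45b was also not called without library 1 or 3 of Tg. Arc rose from a low level (1.27, 1.40 and 2.25 CPM to 4.18, 4.66 and 6.07, log2 fold change 1.59). It was not called without library 3 of BtdCPU + Tg or without library 1 or 2 of Tg. The circadian repressors Bhlhe41 (1.41) and Nr1d1 (1.41) also rose, both highest in library 3 of BtdCPU + Tg (38.0 and 70.0 CPM). Neither was called without that library or without library 1 of Tg, nor Nr1d1 without library 2 or 3 of Tg. Ctgf and Skil were the called members among 25 genes of TGF-beta signalling and myofibroblasts (block 4 higher and 1 lower), against 1.29% of all tested genes called higher. They had log2 fold changes of 1.22 and 0.84, and the contractile gene Acta2 had 0.03. Neither Ctgf nor Skil was called without library 3 of BtdCPU + Tg or library 1 or 2 of Tg. Ctgf was also not called without library 1 of BtdCPU + Tg or library 3 of Tg.

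**Figure D2:**
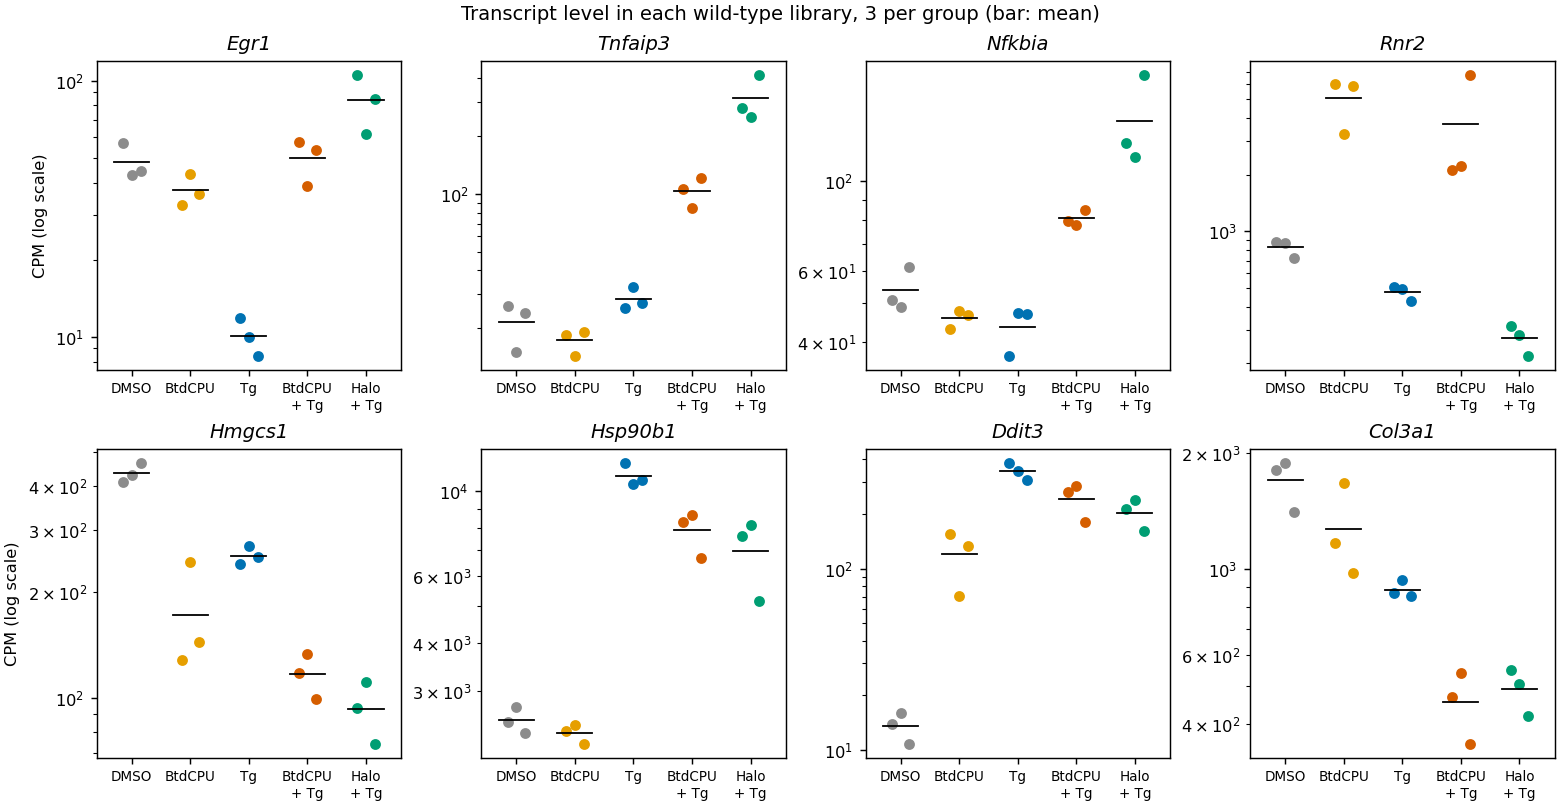
CPM of 8 genes (log scale) in each WT library, 3 per group, for DMSO, BtdCPU, Tg, BtdCPU + Tg and Halofuginone + Tg (Halo + Tg), with bars at the means. Egr1, Tnfaip3 and Nfkbia were higher with BtdCPU + Tg than in any Tg library, Hmgcs1, Hsp90b1 and Col3a1 lower, and Rnr2 reached 2106 to 6721 CPM against 427 to 505.

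Genes of sterol synthesis and uptake fell. Their shared activator is SREBP2, which is released when sterols in the ER membrane run low. Of 25 genes, 12 were called lower and 0 higher, against 1.02% and 1.29% of all tested genes. All 25 lay below 0, against 49.5% of the tested genes. The list's median log2 fold change was -0.60. The block called 20 lower, and 3 were lower without library 3 of BtdCPU + Tg and 3 without library 1 of Tg (list medians -0.48 and -0.60). Averaged over the list, log2(CPM + 1) was 5.43 to 5.77 in libraries with BtdCPU + Tg and 6.15 to 6.24 with Tg, and the groups did not overlap.

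Hmgcs1, which makes HMG-CoA, had 117, 133 and 99.4 CPM with BtdCPU + Tg and 240.0, 270.4 and 251 with Tg (log2 fold change -1.12 ± 0.18, adjusted p = 0.00132). Sqle, which oxidises squalene, had 211, 201 and 167 CPM against 356, 329 and 315 (-0.79 ± 0.13, adjusted p = 0.00155). Both were separated in all libraries and were called in each of the 16 alternatives. The decarboxylase Mvd (-0.96), the SREBP regulator Insig1 (-0.85) and the synthases Fdps (-0.69) and Fdft1 (-0.57) fell as well, Mvd not called without library 3 of BtdCPU + Tg or library 1 of Tg. Srebf2, which encodes SREBP2, had -0.17 and did not pass, nor did Dhcr7 (-0.44) or Lss (-0.28).

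Hmgcs1 is shown with the sterol element TCACNCCAC (capitals), a sequence known to bind SREBP, in the 250 bases before its start on the plus strand, chr13:119690101-119690350 (RefSeq, GRCm38.p6). The match begins 137 bases before the start. In windows of 300 bases it was found on either strand in 1 of 17 sterol genes that had a window (5.88%), against 1.39% of the tested genes and 1.44% of all, and only this spelling was searched. The CCAAT box (CCAAT, which also begins the ER stress element described with Hsp90b1) was found in 16 of the 17 (94.1%), against 42.9% and 41.1%.
Hmgcs1: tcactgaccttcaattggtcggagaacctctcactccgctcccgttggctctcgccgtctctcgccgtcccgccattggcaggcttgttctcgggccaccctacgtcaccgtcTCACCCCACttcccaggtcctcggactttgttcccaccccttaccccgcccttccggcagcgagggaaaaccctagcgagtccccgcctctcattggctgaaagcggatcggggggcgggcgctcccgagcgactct

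In genes of fatty acid synthesis, 3 of 14 were called lower and 0 higher (1.02% of all tested genes were called lower), with a median of -0.29. These were the desaturase Scd2 (380, 368 and 307 CPM against 514, 578 and 580; log2 fold change -0.66), Acly, which makes cytosolic acetyl-CoA (-0.45), and the elongase Elovl1 (-0.35). The block called 6, and none was called without library 3 of BtdCPU + Tg or without library 1 of Tg. Fasn (-0.15) and Acaca (0.03), the core enzymes of the pathway, did not pass. Lpin1, a phosphatidate phosphatase of triglyceride synthesis, fell by 0.97 on the log2 scale and was not called without library 3 of either group.

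Chaperones of the ER were lower with BtdCPU. Among 14 folding genes raised by ATF6, 4 were called lower and 0 higher, against 1.02% and 1.29% of all tested genes, and all 14 lay below 0 (median -0.42). Among 33 secretory and ER-associated degradation genes raised by XBP1s, 5 were called lower and 0 higher, with 31 below 0 (median -0.27). With the block these counts were 10 and 20 lower, with 1 XBP1s target (Xbp1 itself) higher. Without library 3 of BtdCPU + Tg, or without library 1 of Tg, none of either list was called, with medians of -0.35 and -0.24 in the first case and -0.36 and -0.28 in the second.

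Hsp90b1, the ER paralog of HSP90, had 8308, 8652 and 6701 CPM against 11822, 10431 and 10674 (log2 fold change -0.48 ± 0.12, adjusted p = 0.0312). Pdia4, a disulfide isomerase, had 1540.4, 1456 and 1259.5 CPM against 2167, 1873 and 2196 (-0.55 ± 0.14, adjusted p = 0.0316). In both genes the highest library with BtdCPU stayed below the lowest Tg library. Pdia6 (-0.42), the co-chaperone Dnajc3 (-0.43), Pdia3 (-0.40), Dnajb11 (-0.40), Edem1 (-0.44), Derl1 (-0.31) and the translocon subunit Ssr1 (-0.34) were the other called members. Hspa5, the gene of BiP and the main ER chaperone, had a log2 fold change of -0.39 ± 0.14 and was not called (adjusted p = 0.131). It passed with the block (adjusted p = 0.00278) and with no filter on low counts. Hspa5 stood at 15274 ± 2572 CPM with BtdCPU + Tg (SD, n = 3), 20048 ± 2032 with Tg and 1389.8 ± 232 with DMSO.

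Hsp90b1 is shown because the ER stress element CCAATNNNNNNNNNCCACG, which ATF6 is known to bind with NF-Y, occurs 2 times in its promoter (capitals), beginning 212 and 107 bases before the start, the latter on the opposite strand. The window is the 250 bases before the start on the minus strand, chr10:86705445-86705694 (RefSeq, GRCm38.p6). In windows of 300 bases the element was found on either strand in 7 of 10 ATF6 targets that had a window (70.0%), against 0.188% of the tested genes and 0.137% of all.
Hsp90b1: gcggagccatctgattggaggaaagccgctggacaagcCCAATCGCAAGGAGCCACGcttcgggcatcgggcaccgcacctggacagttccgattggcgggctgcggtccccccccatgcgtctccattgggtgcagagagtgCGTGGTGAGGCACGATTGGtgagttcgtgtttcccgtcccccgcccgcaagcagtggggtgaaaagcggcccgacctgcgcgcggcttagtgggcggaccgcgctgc

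Of 20 ISR transcription factors and signalling genes, 0 were called in either direction by edgeR. An unadjusted p under 0.05 was found for 4 of them, all lower, where 1279 of all 16065 tested genes were lower at that threshold. The list's median was -0.15, the block called 3 lower, and DESeq2 and the other alternatives called between 0 and 6 lower and none higher. The deletion target of the series, Eif2ak3 (the gene of PERK), had 74.9, 72.7 and 74.4 CPM with BtdCPU + Tg and 79.1, 78.1 and 104 with Tg, and the HRI gene Eif2ak1 had a log2 fold change of -0.17. Neither was called. For comparison, Eif2ak3 stood at 31.1 ± 1.10 CPM in WT and 9.95 ± 0.760 in PERK -/- cells with DMSO (SD, n = 3), so reads of the gene remained in cells labelled PERK -/-.

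Atf4, the central transcription factor, had 1291, 1293 and 1175 CPM against 1501, 1395 and 1327 (log2 fold change -0.17 ± 0.11, adjusted p = 0.441). Ddit3, which encodes CHOP, had 264, 285 and 181 CPM against 381, 344 and 309 (-0.51 ± 0.20, adjusted p = 0.184), and the groups did not overlap. It was called lower in 2 of the 16 alternatives. Trib3, a pseudokinase downstream of ATF4 and CHOP, had 234, 204 and 203 CPM against 253, 233 and 188 (-0.07 ± 0.26), with overlapping groups. Atf3 had 0.10, Asns -0.12, Chac1 0.02 and Dnajb9 -0.32, none of them called, while Tg over DMSO (which shares the Tg libraries) gave 6.17 for Atf3, 1.92 for Asns and 4.05 for Chac1. Dnajb9 was called lower in 1 of the 16 alternatives. Psat1 of serine synthesis (-0.25) passed with the block (adjusted p = 0.0264). Of 14 genes of serine, one-carbon, proline and asparagine synthesis 13 lay below 0 (median -0.29), 0 were called (9 at an unadjusted p under 0.05, all lower), and the block called 6 lower. Of 20 cytosolic aminoacyl-tRNA synthetases 1 was called, against 1.02% of all tested genes called lower. It was Wars (-0.55), and the block called 5 of the list lower. Wars was not called without library 2 or 3 of BtdCPU + Tg or library 1 or 3 of Tg. Of 12 amino acid transporters 0 were called (block 2 lower). An unadjusted p under 0.05 was found for 3 of the 12, all lower, against 1279 of all 16065 tested genes lower.

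The same list rose with BtdCPU in the other settings. In WT cells without Tg it raised 19 of the 20 ISR genes (median 1.77), against 12.9% of the tested genes, and in PERK -/- cells with Tg it raised 18 (median 1.43), against 17.3%. The difference between the responses with and without Tg in WT cells was itself tested as an interaction term, which called 1402 of all genes (8.73%), and 19 of the 20 were called lower with Tg (median -1.98), against 5.2% of the tested genes. Against PERK -/- cells, where the response over Tg was compared between genotypes, 18 of the 20 were called higher in PERK -/- cells (median of the difference 1.71), against 10.7%. For Ddit3 the differences were -3.64 ± 0.30 and 3.55 ± 0.29 (SE).

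**Figure D3:**
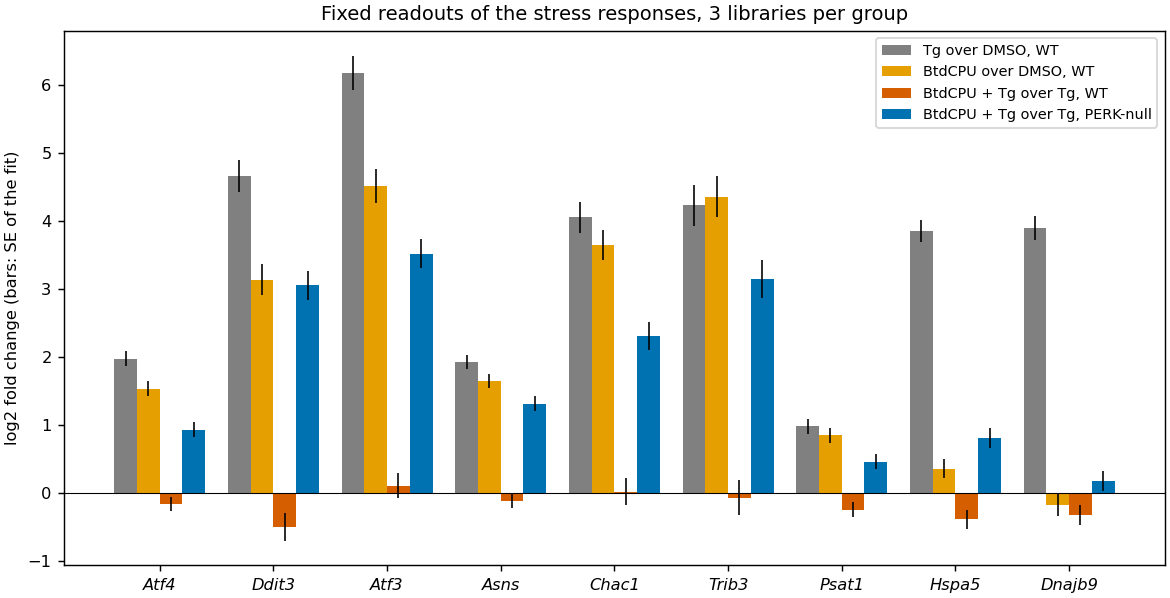
Log2 fold change (bars, with the SE of the fit) of 9 readouts for Tg over DMSO in WT cells, BtdCPU over DMSO in WT cells, BtdCPU + Tg over Tg in WT cells and BtdCPU + Tg over Tg in PERK -/- cells, 3 libraries per group. The bars for BtdCPU + Tg over Tg in WT cells lie between -0.51 and 0.10.

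Avil, Angptl6 and Ptx3, all raised by Tg and by BtdCPU on their own, were among the 10 largest falls. Avil, the gene of advillin, had 9.07, 11.1 and 3.77 CPM against 20.3, 17.4 and 17.1 (log2 fold change -1.20 ± 0.32). Ptx3, a secreted pattern recognition protein, had 97.9, 101 and 56.0 CPM against 194, 161 and 144 (-0.97 ± 0.25). With BtdCPU in WT cells without Tg, Avil, Angptl6 and Ptx3 had log2 fold changes of 2.93, 2.65 and 1.13. None of the 3 was called without library 3 of BtdCPU + Tg or without library 1 or 2 of Tg. Avil and Angptl6 were also not called without library 1 of BtdCPU + Tg or library 3 of Tg. The mitochondrial protease gene Lonp1 moved in a like way, by -0.48 over Tg and 0.83 over DMSO. It was the 1 called member among 23 mitochondrial chaperones and proteases (median -0.17, block 7 lower and 2 higher), against 1.02% of all tested genes called lower. It was not called without library 2 or 3 of BtdCPU + Tg or library 1 or 3 of Tg.

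Transcripts of mitochondrial DNA split by kind. Mitochondrial DNA encodes 13 mRNAs of the respiratory chain, the tRNAs and the ribosomal RNAs of the mitochondrial ribosome. The ribosomal RNAs were higher and some tRNAs lower. Rnr1, the 12S ribosomal RNA, had 508, 474 and 1034 CPM with BtdCPU + Tg and 81.6, 97.5 and 90.4 with Tg (log2 fold change 2.90 ± 0.24, adjusted p = 4.16e-09). Rnr2, the 16S ribosomal RNA, had 2106, 2217 and 6721 CPM against 505, 493 and 427 (2.95 ± 0.30, adjusted p = 1.78e-07). With the block in a fit of just these 6 libraries Rnr2 was not called (adjusted p = 0.147). In both genes the lowest library with BtdCPU stood above the highest with Tg by more than 4 times, and library 3 was the highest in each.

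The 13 mRNAs had a median of -0.26 and 0 were called by edgeR (1 at an unadjusted p under 0.05), although their sum varied: 26673, 31553 and 15484 CPM with BtdCPU + Tg and 30628, 31348 and 22920 with Tg. Without library 3 of BtdCPU + Tg the median was 0.02. The lowest was ND6, on the other strand, at -0.59 (adjusted p = 0.126). Of 18 tRNAs, 3 were called lower: TrnA (1.87, 2.54 and 2.24 CPM against 4.86, 4.73 and 4.83; log2 fold change -1.11), TrnT (-1.44) and TrnW (-1.06, a gene that overlaps ND2 in the annotation used here, and not called without library 3 of BtdCPU + Tg or library 1 of Tg). With the block TrnE and TrnK were also lower (adjusted p = 0.0411 and 0.0352), and TrnV was higher (adjusted p = 0.0387) at 0.163, 0.131 and 0.448 CPM against 0.0309, 0.0270 and 0.0278, near the limit of detection. The 74 nuclear genes of the respiratory chain had a median of -0.16 with 68 below 0, and 0 were called (block 14 lower). Of these 74, 15 had an unadjusted p under 0.05, all lower, against 1279 of all 16065 tested genes lower. Across the whole series, all 12 libraries with BtdCPU held more of both ribosomal RNAs (Rnr1 at 474.3 to 3178 CPM, Rnr2 at 2106 to 10405 CPM) than the 24 without it (Rnr1 at 59.7 to 474.0, Rnr2 at 219.8 to 1076). The libraries were depleted of ribosomal RNA, per the labels' protocols. The part of that depletion in this result was not tested.

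Genes of collagen and its folding fell in part. Of 27 genes, 4 were called lower and 0 higher, against 1.02% and 1.29% of all tested genes, with a median of -0.10, and only Col3a1 passed 0.5 on the log2 scale among them. Col3a1, a fibrillar collagen chain, had 469, 540 and 355 CPM against 871, 936 and 851 (log2 fold change -0.96 ± 0.18, adjusted p = 0.00324), and all 3 libraries were below those with Tg. Tg alone had already lowered it from 1699 ± 253 CPM in DMSO (SD, n = 3). Col1a2 (-0.42), the collagen chaperone Serpinh1 (-0.46) and the prolyl hydroxylase subunit P4hb (-0.34) were the other 3, while Col1a1 had -0.13 and Col6a1 0.10. The block called 8 lower and 2 higher, and none was called without library 3 of BtdCPU + Tg.

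The remaining lists held at most 2 called members each, where 1.29% of all tested genes were called higher and 1.02% lower. Cyp1a1, the classical target of the aryl hydrocarbon receptor, had 1.03, 1.68 and 1.48 CPM against 5.60, 7.16 and 7.74 (log2 fold change -2.29 ± 0.46, adjusted p = 0.00713). The receptor's own gene, Ahr, had 17.7, 13.9 and 29.6 CPM against 6.62, 8.75 and 9.33 and rose (1.30 ± 0.26, adjusted p = 0.00626). The target Cyp1b1 had a log2 fold change of 0.02, and neither Cyp1a1 nor Ahr was called without library 3 of BtdCPU + Tg. Ahr was also not called without library 1 of Tg. Nqo1 (-0.64) and Pgd (-0.48), enzymes of redox supply, were the called members of 19 NRF2 targets. All 19 lay below 0 (median -0.29, block 10 lower). None of the 19 was called without library 3 of BtdCPU + Tg, nor was Pgd without library 3 of Tg. Arrdc4, an inhibitor of glucose uptake, fell by 0.91 on the log2 scale, the 1 called of 24 genes of glucose uptake and glycolysis (block 7 lower and 2 higher), and was not called without library 3 of BtdCPU + Tg. Mcm10, the 1 called of 35 replication genes (block 5 higher), had a log2 fold change of 0.42. Atg13 (-0.52) and Map1lc3a (-0.39) were the called members of 28 autophagy and lysosome genes (block 5 lower). Mcm10, Atg13 and Map1lc3a were not called without library 3 of BtdCPU + Tg, without library 1 of Tg or without library 3 of Tg. Mcm10 was also not called without library 2 of BtdCPU + Tg, nor Map1lc3a without library 1 of BtdCPU + Tg.

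Interferon-stimulated genes had the lowest median of the 34 lists, -0.85 over 23 tested genes, yet 0 were called by edgeR and 3 had an unadjusted p under 0.05, against 17% of all tested genes. Their mean log2(CPM + 1) was 3.02 to 3.90 in libraries with BtdCPU + Tg and 3.44 to 4.80 with Tg, and the groups overlapped. Within pairs of same-numbered libraries the list was lower with BtdCPU by 0.43, 0.90 and 0.42, and the fit with the block called 16 lower. Histone cluster genes leaned the other way, with a median of 0.45 over 66 tested genes, 0 called by edgeR (15 at an unadjusted p under 0.05, against 17% of all tested genes), 5 higher with the block and up to 19 among the alternatives. No gene was called among 79 cytosolic ribosomal proteins, 17 heat shock chaperones, 25 mitosis genes, 13 hypoxia targets, 11 BCL-2 family genes or 25 genes of ribosome biogenesis, and 4, 1, 2, 0, 2 and 4 of them had an unadjusted p under 0.05, against 17% of all tested genes. With the block 7 ribosomal proteins, 2 heat shock chaperones and 2 ribosome biogenesis genes were lower, 1 BCL-2 family gene was higher, and 1 mitosis gene was higher and 1 lower. Over all tested genes the block called 6.06% lower and 6.88% higher.

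**Figure D4:**
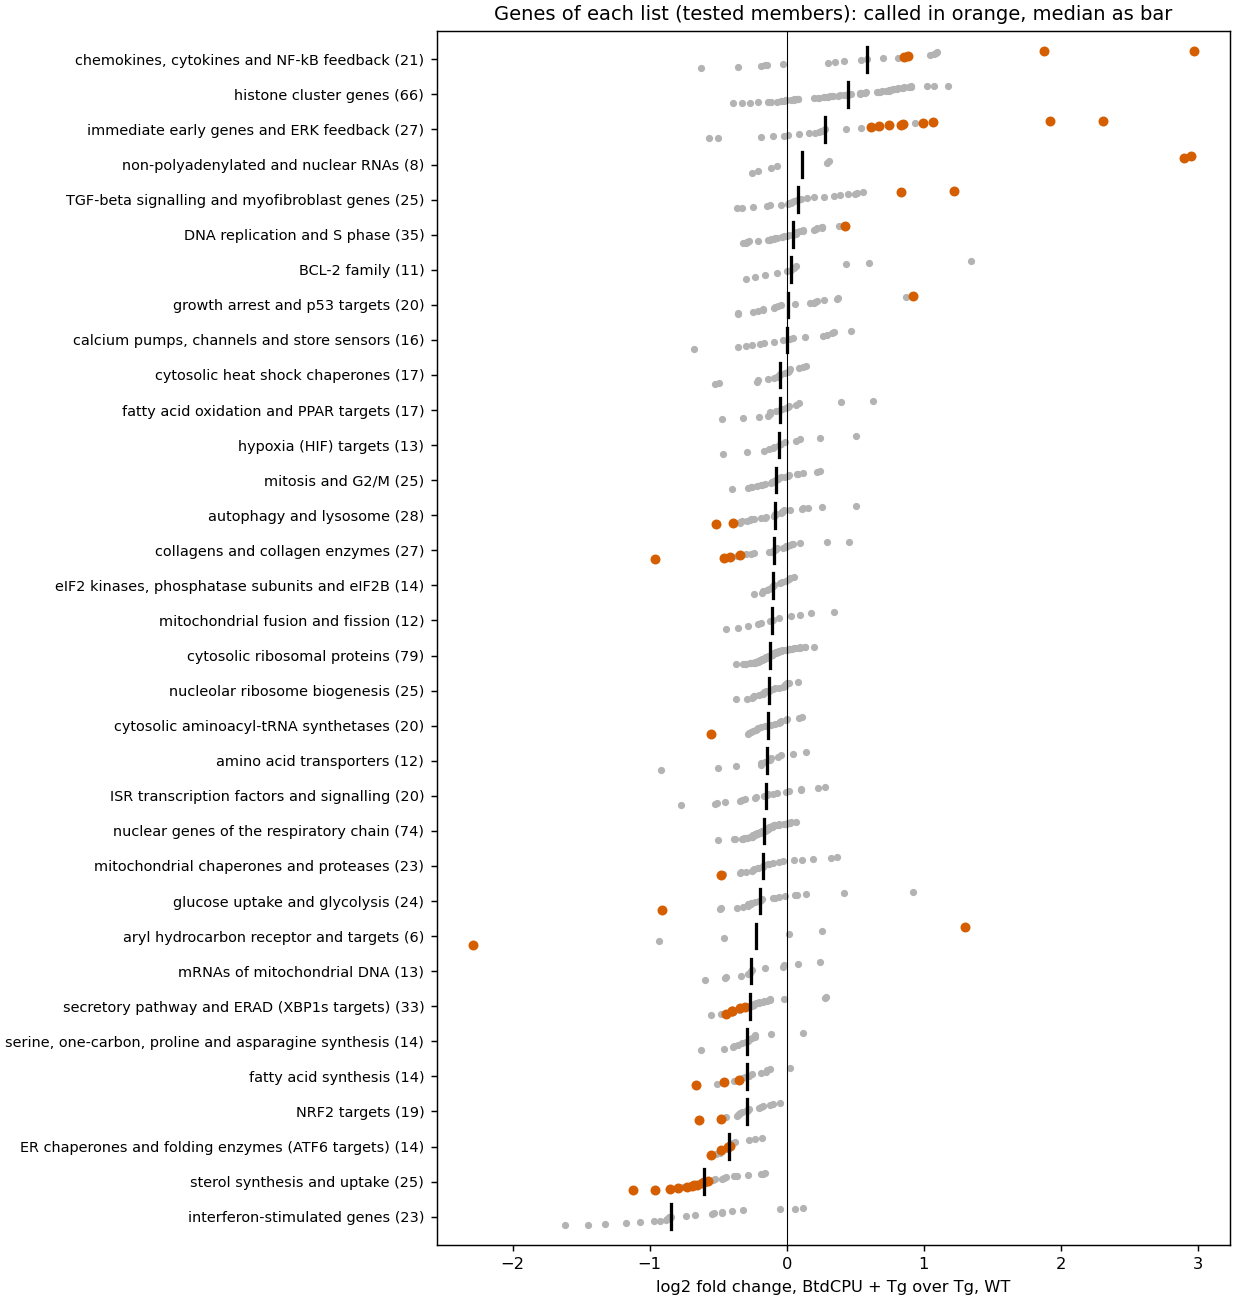
Log2 fold change of BtdCPU + Tg over Tg in WT cells (horizontal) for the tested members of each of 34 lists (number in brackets), ordered by median (bar), with called genes in orange. Sterol genes (12 of 25) and early genes (9 of 27) hold the most called members; interferon-stimulated genes have the lowest median, -0.85, with 0 called.

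The contrast was then set beside those that share none of its libraries. Of the 208 genes called higher over Tg, 51 (24.5%) were also called higher by BtdCPU over DMSO in WT cells, which is 2.46% of the 2075 called there, and 12.9% of all tested genes were called higher in that comparison. Of the 164 called lower, 46 (28.0%) were also called lower, 3.07% of 1496, against 9.31% of all tested genes. In PERK -/- cells, 71 of the 208 (34.1%) were called higher over Tg, 2.55% of 2783, and 78 of the 164 (47.6%) lower, 2.65% of 2940, against 17.3% and 18.3% of all tested genes. By sign alone, 60.1% of the 208 and 76.8% of the 164 had the same sign over DMSO, and 57.2% and 73.8% in PERK -/- cells.

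The sterol genes fell in all 3 settings, whereas the early genes differed between them. BtdCPU over DMSO lowered 24 of the 25 sterol genes (median -1.12), against 9.31% of all tested genes, and BtdCPU + Tg over Tg in PERK -/- cells lowered 24 (median -1.11), against 18.3%. Hmgcs1 had log2 fold changes of -1.34 and -2.05 there, and Sqle -1.06 and -1.11. In the interaction with Tg, 6 of the 25 were called higher, that is less lowered with Tg than without, against 3.53% of the tested genes, and in the interaction with genotype 13 were called lower in PERK -/- cells, against 10.1%. Rnr1 and Rnr2 were called higher in each setting and in neither interaction (Rnr2 over DMSO 2.62, in PERK -/- cells 3.31).

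The genes that rose over Tg in WT cells did not behave alike elsewhere. Egr1 (-0.36 and -0.19) and Tnfaip3 (-0.32 and -0.51) were not called higher by BtdCPU over DMSO or in PERK -/- cells, and Junb was called lower in both (-0.56 and -0.88). Lif and Csf2 were called higher over DMSO (0.56 and 3.38) but not in PERK -/- cells (0.19 and 1.24). For Egr1, Tnfaip3, Junb and Nfkbia the differences were called in both interactions: 2.68 and -2.50 for Egr1, 2.20 and -2.38 for Tnfaip3, 1.63 and -1.94 for Junb, and 1.11 and -1.83 for Nfkbia (with Tg minus without, then PERK -/- minus WT). In PERK -/- cells Egr1 stood at 2.34 ± 0.498 CPM with BtdCPU + Tg and 2.67 ± 0.260 with Tg (SD, n = 3). Nr4a1 and Dusp4 behaved otherwise: both were called higher in all 3 settings, Nr4a1 by 0.85, 0.64 and 0.55, and Dusp4 by 0.84, 0.92 and 3.08.

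**Figure D5:**
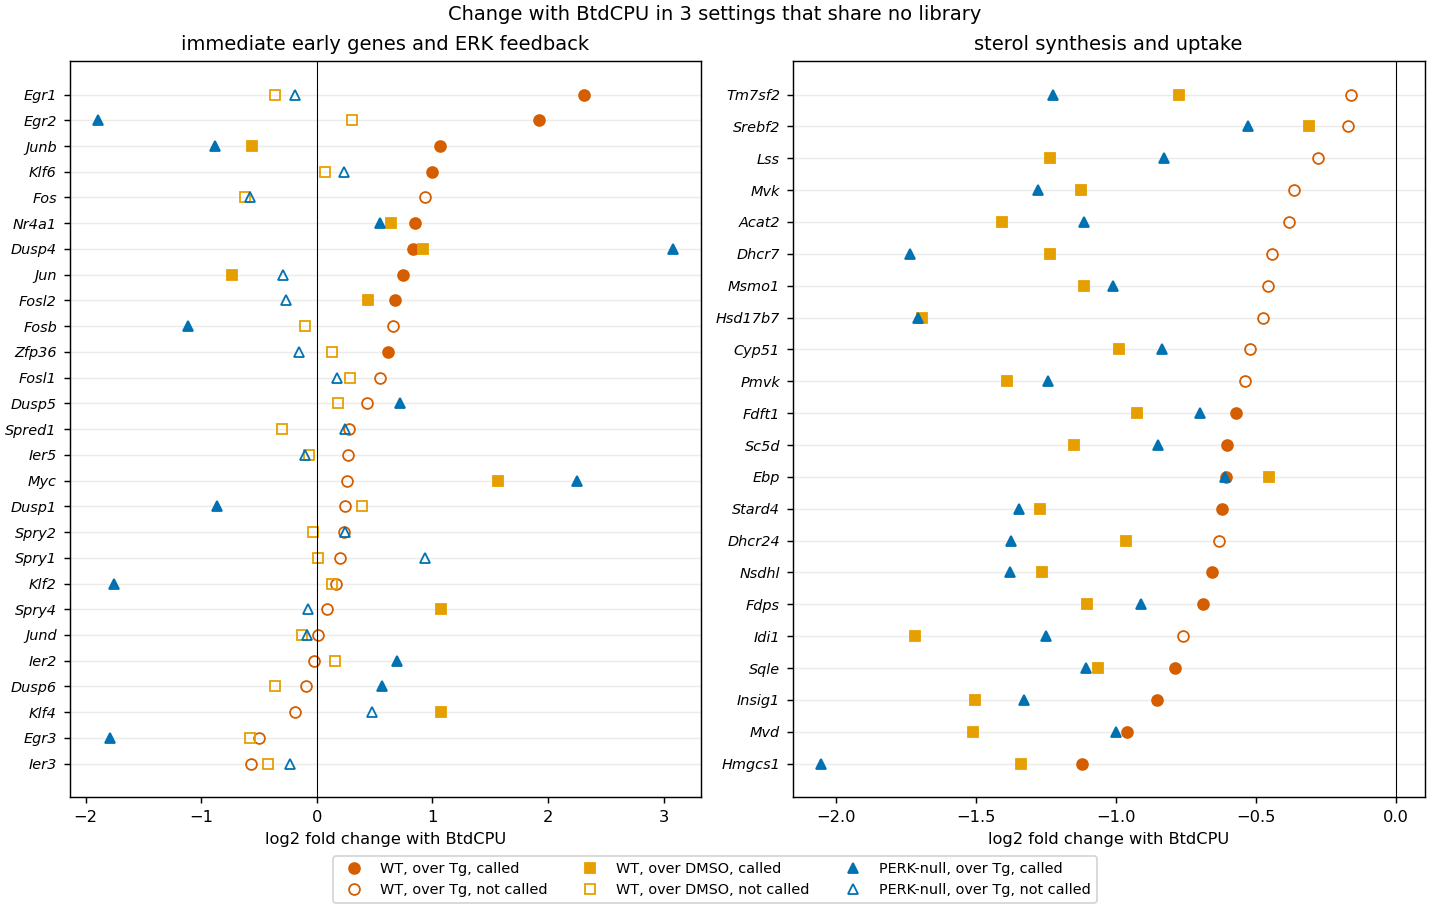
Log2 fold change with BtdCPU for 27 early genes (left) and 22 of the 25 sterol genes (right) over Tg in WT cells (circles), over DMSO in WT cells (squares) and over Tg in PERK -/- cells (triangles), filled where called. Egr1, Egr2 and Junb are filled on the right only over Tg in WT cells, and all sterol genes drawn lie below 0 in all 3 settings.

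Halofuginone, which activates the eIF2 alpha kinase GCN2, was compared with the same Tg libraries, so its values are given only side by side. For Halofuginone + Tg over Tg in WT cells, Egr1 had a log2 fold change of 3.06, Tnfaip3 3.48, Nfkbia 1.68, Junb 1.20 and Csrnp1 3.77, against 2.31, 1.87, 0.89, 1.07 and 1.52 with BtdCPU. Hmgcs1 had -1.45 against -1.12, Hsp90b1 -0.66 against -0.48, and Col3a1 -0.85 against -0.96. Rnr1 and Rnr2 had -0.44 and -0.80 with halofuginone. Doses are not given in the labels, so sizes are not compared.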

How the data were processed

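Transcripts were counted in 36 bulk RNA-seq libraries. The authors deposited expected counts per gene, estimated and unscaled, in 1 table. Per the labels' protocols, RNA was extracted with a Zymo kit and sequenced as strand-specific DNBSEQ libraries after ribosomal depletion and mRNA selection, and the submitters' processing notes name GRCm39 and DESeq. Aligner, counting tool and use of strand are not given in the sources used here. Of 36930 entries, 50.6% of values are 0.025 (taken as 0), and 2.69% of the rest are not whole. Entries named by a date (27, with 0.206% to 0.278% of counts) were left out, repeated symbols summed, and counts rounded.

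Genes kept by filterByExpr were tested with edgeR 4.0.16 (R 4.3.3; quasi-likelihood, robust, TMM scaling, 12 group means over all 36 libraries, 24 residual degrees of freedom), with Benjamini-Hochberg adjustment over 16065 genes in each of 7 contrasts and a call below 0.05. SE is derived from the test statistic. CPM uses TMM-scaled totals. Depth was 33509674 to 37178107 counts in the 6 libraries. The SE of the fit and the SD over the libraries of a group both include the spread between libraries. No pair of libraries of a group agreed within sampling noise. Tested on simulated data for BtdCPU + Tg against Tg (16065 genes), the fit recovered 64.2% of 1.5-fold, 97% of 2-fold and 100% of 4-fold changes, with 6 false among 180 calls. The changed genes were drawn only from the better expressed ones. Counts were simulated without replicate pairs and without a deviating library, so recovery and false calls in the real data may differ.

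Same-numbered libraries were taken as pairs in the replicate block and in differences within pairs, because the correlations of their deviations from the group means were all above 0.1. The calls given as the main result come from the fit of group means, which did not use the pairs. Where the pairing comes from is not stated in the labels. Groups follow the labels. Members, gene lists and the naming rule were chosen with earlier results of these data known. Named were fixed readouts, the 10 largest rises and falls (average log2 CPM of at least 2, groups not overlapping, over 3 counts in each library of the lower group), up to 4 called members per list by lowest p, and 3 genes in each direction per interaction. Others were named after their values were seen. A few sterol genes counted in their list are not reported here by name. Alternatives were RLE or no scaling, no filter, DESeq2 1.42.0, a fit of the compared groups, the replicate block, and leaving out libraries. Of the tested symbols, 14250 matched a current and 735 an older RefSeq symbol (GRCm38.p6). In that annotation Egr2, Nr1d1, Ptx3, Angptl6, Ddit3, Hspa5, Eif2ak1, Pdia3, Pdia4, Pdia6, Scd2, Elovl1, Wars and TrnW overlap another tested gene, whose reads they may include.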

Additional observations from a re-analysis of the deposited data

Results flagged for a closer look

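The change with BtdCPU differed between cells with and without Tg for 1402 genes, and between PERK -/- and WT cells with Tg for 3343 genes, by edgeR interaction tests with an adjusted p under 0.05. Both tests reuse the WT libraries of the comparison above. These results are listed because the difference itself passed; groups hold 3 libraries, too few to single out a library by its distance from the rest.

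A log2 difference below 0 is a lower response to BtdCPU with Tg than without, and none of the ISR genes named next was called over Tg. With Tg minus without Tg in WT cells, the log2 difference was below 0 for ISR genes: Adm2 -4.62, Trib3 -4.43, Atf3 -4.40, Ddit3 -3.64, Chac1 -3.63, Asns -1.76, Atf4 -1.69 and Psat1 -1.09. It was also below 0 for Cdsn (-4.59), Avil (-4.13), Angptl6 (-3.70), Ptx3 (-2.10) and the ER chaperone Hspa5 (-0.75). It was above 0 for early and inflammatory regulators: Egr1 2.68, Tnfaip3 2.20, Rgs4 2.00, Gadd45g 1.96, Arc 1.85, Csrnp1 1.63 and Egr2 1.62. Rgs4 was not called in 6 of 18 alternatives, each leaving out 1 library: library 1 or 3 of BtdCPU alone, library 3 of BtdCPU + Tg, library 1 or 2 of Tg or library 3 of DMSO, with log2 differences of 1.63 to 1.93.

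For PERK -/- minus WT, the difference of the response over Tg was above 0 for Car6 (5.29), Cdsn (4.57), Fgf21 (4.37), Angptl6 (3.89), Avil (3.88), Ddit3 (3.55), Atf3 (3.41), Trib3 (3.21), Chac1 (2.29), Ptx3 (1.83), Asns (1.43), Hspa5 (1.20), Atf4 (1.10) and Psat1 (0.71). It was below 0 for Egr2 (-3.81), Cyp1b1 (-3.70), Arc (-3.04), Mpp2 (-2.72), Gadd45g (-2.64), Egr1 (-2.50), Tnfaip3 (-2.38), Nr1d1 (-1.74), Csrnp1 (-1.36) and Hmgcs1 (-0.93). Cyp1b1, which had 0.02 in WT cells, went from 22.0 ± 2.06 CPM with Tg to 1.70 ± 0.495 with BtdCPU + Tg in PERK -/- cells (SD, n = 3).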

How the results depend on the processing

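The count of 372 calls became 34 in a fit of just the 6 libraries compared, 813 with no filter on low counts, 866 with DESeq2, 2079 with the replicate block and 2660 with the block in a fit of the compared groups. It ranged from 41 (without library 3 of BtdCPU + Tg) to 345 on leaving out 1 library, with 166 without library 3 of Tg and 67 without library 1 of Tg. Chosen after seeing the data, the block without both libraries of pair 1 gave 817 calls, without pair 2 1716 and without pair 3 441. Scaled by library size alone, 80.7% of calls were higher, against 55.9% as reported and 46.6% with RLE. Of the 372, 33 were called without each of the 6 libraries in turn (26 higher, 7 lower), and 16 in every alternative, among them Rnr1, Egr1, Egr2, Tnfaip3, Csrnp1, Junb, Klf6, Nfkbia, Jun, Hmgcs1, Sqle, Ankrd28, Helq, Dusp16 and Prr5l.

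The interaction with Tg (1402 calls) gave 550 in a fit of the compared groups, 3140 with the block, and 820 to 2652 on leaving out 1 library (820, 2652 and 910 without libraries 1, 2 and 3 of BtdCPU alone). Library size as scaling moved the median of all genes by 0.126 and the share called higher from 40.4% to 64.7%. The interaction with genotype (3343) ran from 2724 to 3215 on leaving out 1 library, and its share called higher was 51.6%, or 41.4% by library size. Of the genes named by rule, which were refitted under each alternative, direction changed for Chac1 (-0.000189 with no filter, -0.0197 with the block and without pair 3, and -0.0287 to 0.0440 on leaving out 1 library, the lowest without library 3 of Tg) and Trib3 (-0.196 to 0.0175 on leaving out 1 library, the highest without library 1 of Tg), neither of them called. Why these settings differ was not tested. With 3 libraries a group, smaller changes are less often found: the simulated recovery was 64.2% at 1.5-fold.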
